A study of Caenorhabditis elegans with 2 samples.

Results

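Cohesin is a ring of proteins that holds sister chromatids together and folds chromosomes into loops. Its core is a pair of SMC proteins closed by a kleisin subunit, with SCC-3 bound to the kleisin, and the release factor WAPL opens the ring again. In C. elegans separate kleisins serve mitosis and meiosis. The results describe the binding of the protein ZK546.5 at 8 genes of this machinery, out of 19985 annotated protein-coding genes. They are wapl-1 (cohesin release), smc-1 and smc-3 (the SMC pair), scc-3, evl-14 (the PDS5 homolog, a cohesin regulator), and the kleisin genes coh-1, coh-3 and coh-4. The 8 genes were chosen by their place in the complex, with the strong call at wapl-1 in these data already known. They are not all of its genes: scc-1, also a kleisin gene, and rec-8 were read with a further list, described below. For each gene the strongest call with its summit within 1000 bp of the annotated 5′ end was read. The levels and counts of calls are therefore descriptions, with no test.

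Chromatin immunoprecipitation with sequencing was done on whole third-stage (L3) larvae of both sexes, pooled, of strain OP231 (genotype unc-119(ed3) III; wgIs231). ZK546.5, to which RefSeq gives a C2H2-type domain, was mapped as a stably expressed fusion that ends in GFP-FLAG. All animals came from this single transgenic line, and the promoter of the transgene was not given in the sources used here. There were 2 biological replicates of this 1 group and no second condition. Each replicate list and the pooled list held 30000 calls, and the thresholded set of the submitters held 261 peaks. In whole animals, binding in few cells and weak binding in many cells cannot be told apart. Signal values are on each list's own scale, so lists were compared by rank, where 1 is the strongest, and a ratio of signals between replicates is given only beside the same ratio at the other peaks. The weakest call kept had a signal of 12.97 in the pooled list, 8.46 in replicate 1 and 5.98 in replicate 2, so a gene without a call is one without a call above those values, not one without binding.

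The wapl-1 promoter carried one of the strongest calls of the experiment, and the same stretch is also the promoter of a histone gene. On ce11 wapl-1 (WBGene00019953) spans 4442362 to 4445740 of chromosome IV on the minus strand. The pooled summit lay at 4445914, in intergenic sequence 174 bp upstream of the wapl-1 5′ end. It was also 302 bp upstream of htz-1, which encodes the histone variant H2A.Z and is transcribed in the opposite direction from a 5′ end 476 bp away. The 300 bases around the summit, chrIV:4445765-4446064 read on the wapl-1 strand towards the gene, are shown because they carry the result. The capitals mark the words CGAGAC and ACCGTA, which are frequent at the thresholded peaks and here lie on the other strand, as GTCTCG and TACGGT.
wapl-1 summit: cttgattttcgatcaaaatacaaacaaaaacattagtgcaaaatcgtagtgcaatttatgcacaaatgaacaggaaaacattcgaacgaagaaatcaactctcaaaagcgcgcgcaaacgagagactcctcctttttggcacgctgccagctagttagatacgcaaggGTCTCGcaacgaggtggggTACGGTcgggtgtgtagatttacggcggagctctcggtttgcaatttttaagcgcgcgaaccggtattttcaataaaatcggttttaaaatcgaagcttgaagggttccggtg
GTCTCG begins 156 bp and TACGGT 137 bp upstream of the wapl-1 5′ end, so both lay between the summit and wapl-1.

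Both replicates placed this call among their strongest. The wapl-1 call had a signal of 350 in replicate 1, 495 in replicate 2 and 851 in the pooled list. These values were rank 20 in replicate 1, rank 12 in replicate 2 and rank 13 in the pooled list, out of 30000 calls each. The summits of replicate 1 and replicate 2 lay 174 and 176 bp upstream of wapl-1, 2 bp apart, and the called intervals were 285 and 327 bp wide. The score in the q-value field was at its list's ceiling, which 56 pooled calls shared. The ratio of the replicate 2 signal to that of replicate 1 was 1.41 at this peak, against a median of 1.22 (interquartile range 0.943 to 1.61) over the 248 thresholded peaks with a call within 200 bp in both lists. The wapl-1 call thus varied between replicates within the range of the other peaks.

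A weaker thresholded peak lay farther upstream, beyond the far end of htz-1. Its summit at 4447135 was 1395 bp upstream of wapl-1, outside the 1000 bp read for the gene, and 196 bp upstream of chat-1, which encodes a CDC50 family protein. Other 5′ ends within 1000 bp of this summit were those of the snoRNA gene R08C7.19 (504 bp), the non-coding RNA gene R08C7.17 (527 bp) and htz-1 (919 bp). The pooled signal there was 52.1 (rank 258 of the 261 peaks). Replicate 2 had a call of 33.7 at rank 242 in this place, while that of replicate 1 was 18.1 at rank 2772. The replicates therefore ranked the chat-1 side very differently, unlike the wapl-1 side. By signal the difference was smaller. The ratio of replicate 2 to replicate 1 was 1.87 at this peak, and 211 of the 248 peaks compared above had a lower one. No thresholded summit lay in the body of wapl-1, where the strongest pooled call was 14.2, at rank 25156.

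**Figure D1:**
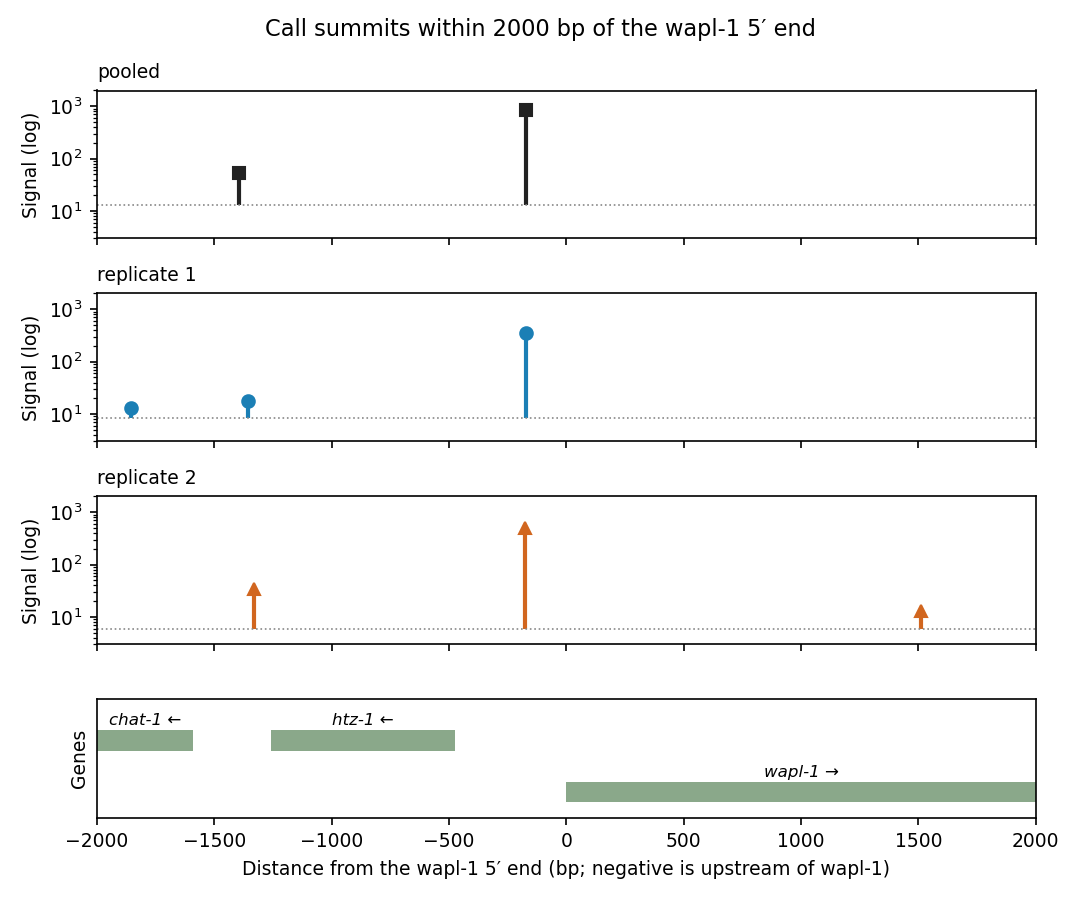
Call summits within 2000 bp of the wapl-1 5′ end by distance in bp, with the signal of each call on a log axis and genes as bars with their direction; the dotted line is the weakest call of each list. The call at 174 to 176 bp upstream stands above all others in the 3 lists, between wapl-1 and htz-1.

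Among coding genes with a similar pattern, likeness to wapl-1 was measured as the summed difference in log10 rank over the 2 replicates, for 5699 genes with a call in both that do not share its call. The nearest was vig-1, which encodes an RNA-binding protein of the silencing complex (ranks 19 and 13, summed difference 0.057). It was followed by eef-1A.1, a translation elongation factor gene, and rfc-4, a subunit gene of the clamp loader of DNA replication, which share 1 call (ranks 22 and 14, summed difference 0.108). Their pooled signals were 849 for vig-1 and 824 for the other two. The likeness is a description over 2 replicates.

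Of the other 7 cohesin genes, smc-1, smc-3 and evl-14 had weaker calls within 1000 bp, and scc-3 and the kleisin genes coh-1, coh-3 and coh-4 had none. The gene smc-1, listed as him-1 (WBGene00001860) in the annotation and encoding one SMC protein of the ring, spans 4951571 to 4957667 of chromosome I. Its strongest pooled call had a signal of 14.9 at rank 22502, 261 bp inside the gene. Replicate 2 had a call of 11.6 at rank 6648 there, 250 bp inside, and replicate 1 had none within 1000 bp. Calls just outside the limit were one of 9.60 at 1003 bp inside the gene and one of 12.3 at 1040 bp upstream in replicate 1, and one of 13.4 at 1054 bp upstream in the pooled list. Its neighbour mzt-1, a gene for a small protein of the gamma-tubulin complex, lies 642 bp upstream on the same strand. The gene mzt-1 shares the pooled call and the replicate 2 call, which lay 903 and 892 bp from its 5′ end. The pooled call was thus near the floor of its list, the replicate 2 call was above the floor of its own, and replicate 1 had no call at this place.

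The gene smc-3 (WBGene00004873, chromosome III, 11290904 to 11306247) had no pooled call within 1000 bp. Replicate 1 had a call of 10.04 at rank 21482, 6 bp upstream of the 5′ end and also upstream of mib-1 and gly-9, which start 228 and 324 bp away on the opposite strand. In replicate 2 the strongest was 8.87 at rank 14300, 820 bp inside the gene, and a weaker one of 6.53 lay 431 bp upstream. Both replicates thus had a call near smc-3, but not at the same position. The nearest pooled call lay outside the limit, 1357 bp inside the gene, at rank 21342, and replicate 1 had one of 12.6 at 1364 bp. Along the 15344 bp of smc-3 there were 7 pooled calls, the strongest (24.3, rank 4333) at 6325 bp from the 5′ end.

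The gene scc-3 (WBGene00004738, chromosome V, 12763945 to 12767933), which encodes the core subunit bound to the kleisin, had no call near it. Neither the pooled list nor either replicate had a call within 2000 bp of its 5′ end or in its 3989 bp. The nearest pooled summit was 8578 bp away, and the nearest was 4333 bp away in replicate 1 and 7975 bp in replicate 2. The replicate 1 call, past the far end of scc-3, had a signal of 22.5 at rank 898. The neighbour abcf-1 starts 570 bp upstream in the opposite direction, so scc-3 shares the head-to-head arrangement of wapl-1.

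The regulator gene evl-14 (WBGene00001352, chromosome III, 4303096 to 4313128) had a call in replicate 1 alone. It had a signal of 12.3 at rank 12916 and lay 745 bp upstream of evl-14, but 39 bp from the 5′ end of dcn-1 on the opposite strand. The nearest pooled summit was 1376 bp inside evl-14 and the nearest of replicate 2 was 2115 bp upstream. Within the 10033 bp of the gene there were 5 pooled calls, none stronger than 20.3 (rank 9088). Among the 8 genes, wapl-1 aside, evl-14 had the nearest thresholded summit, 30864 bp away, and coh-4 the farthest, 874015 bp away.

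None of the kleisin genes coh-1, coh-3 and coh-4 had a call within 1000 bp in any list, and neither did rec-8. The kleisin gene scc-1, described below, had calls in the pooled list and in both replicates. Its pooled summit was 264 bp upstream of scc-1 but 30 bp upstream of rpn-5. For coh-1 (WBGene00000591, chromosome X, 7465193 to 7475018), a kleisin gene with no other coding gene starting within 2500 bp, the nearest pooled summit was 1583 bp upstream, with a signal of 29.3 at rank 1827. Calls near it ranked 15557 in replicate 1 (1739 bp upstream) and 20127 in replicate 2 (1608 bp upstream). For coh-3 (WBGene00000592, chromosome V, 14457422 to 14460141) the nearest pooled summit was 10036 bp away, the neighbour bmk-1 starts 438 bp upstream in the opposite direction, and no call of any list lay in its 2720 bp. For coh-4 (WBGene00021560, chromosome V, 4169912 to 4175640) the nearest pooled call was 19.6 at rank 10420, 1451 bp upstream. Replicate 2 also had a call of 14.5 at rank 2908 inside coh-4, 85 bp from the 5′ end of a shorter transcript, where the pooled call had a signal of 16.2. At the starts of shorter transcripts, pooled calls within 1000 bp were also present for smc-3 (20.1, rank 9550) and coh-1 (15.8, rank 19748), and for coh-1 replicate 2 had one of 9.57 at 20 bp. With every transcript start counted, 5 of the 8 genes had a pooled call, against 51.7% of protein-coding genes.

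**Figure D2:**
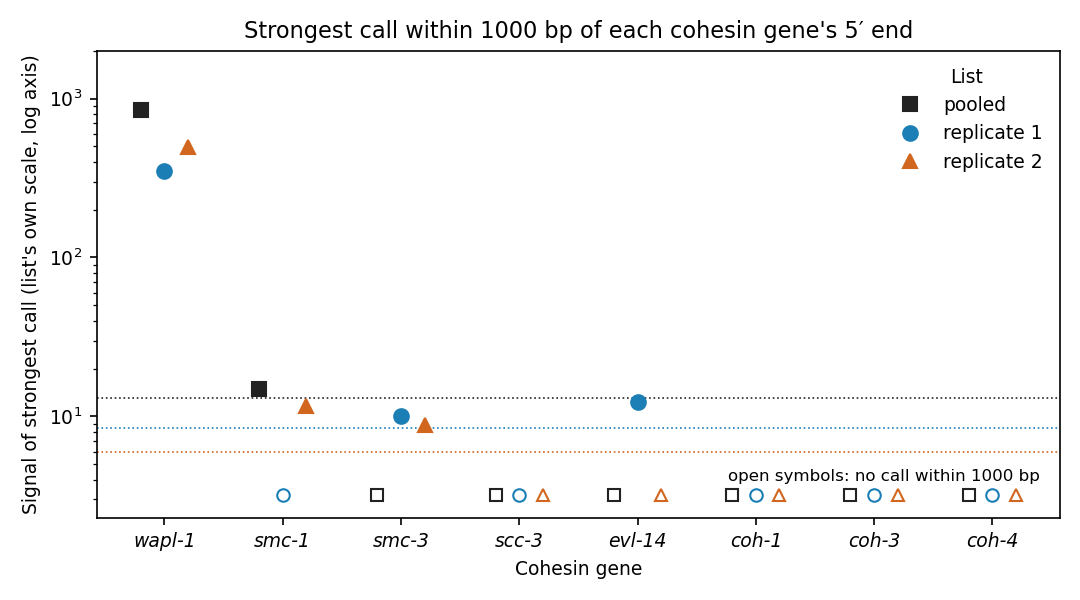
Signal of the strongest call within 1000 bp of each cohesin gene's 5′ end on a log axis, by list; open symbols are genes without such a call and dotted lines the weakest call kept in each list. The wapl-1 values are 851, 350 and 495, whereas every other gene shown is below 15 or without a call. The kleisin gene scc-1, which is not shown, had a pooled call of 40.3.

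In all, 1 of 8 cohesin genes (12.5%) had a thresholded peak, against 1.49% of protein-coding genes, and that gene is the one for which the group was drawn up. A pooled call of any strength lay at 2 of 8 (25%), wapl-1 and smc-1, against 48.9% of protein-coding genes. Both replicates had a call at 2 of 8, wapl-1 and smc-3, against 28.5%. Including single replicates, 4 of 8 had a call in at least 1 of the 3 lists, against 73.3% of protein-coding genes. The median strongest pooled signal over the 9779 coding genes with a call was 18.8, and wapl-1 had 45.3 times that value but smc-1 0.796 times. In replicate 1 the median was 12.5, and smc-3 (10.04) and evl-14 (12.3) were below it. In replicate 2 it was 9.52, and smc-1 (11.6) was above it but smc-3 (8.87) below. Within gene bodies, the 8 genes held 18 pooled calls, or 0.315 per kb, against 0.274 per kb over all nuclear coding genes. The values were 0.245 against 0.277 per kb in replicate 1 and 0.280 against 0.287 per kb in replicate 2, so the direction of this small difference was not the same in every list.

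Several features that the choice of genes did not use can be set beside these values. A coding gene on the opposite strand began within 1000 bp upstream of 6 of the 8 genes, namely wapl-1, smc-3, scc-3, evl-14, coh-3 and coh-4. Over the genome, 4.49% of 3539 coding genes with such a neighbour had a thresholded peak, against 0.839% of the other 16446. A peak near the starts of both genes of a pair was counted for each of them, so these shares do not count separate peaks. Among the 6, wapl-1 alone had a thresholded peak, and over the genome most genes with such a neighbour had none either. In the 300 bp upstream of the 5′ end, the GC content was 44.0% for wapl-1, higher than at 95.0% of coding genes. It was 40.7% for coh-1, 37.0% for smc-3, 36.0% for coh-4, 34.7% for coh-3, 33.3% for smc-1, 32.0% for scc-3 and 29.7% for evl-14, against a mean of 33.9% ± 5.54 (SD, 19973 genes). At the wapl-1 summit it was 50.5% in 200 bp, against a mean of 40.2% ± 9.81 (SD) over the 261 thresholded peaks, of which 223 were lower.

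The words of the wapl-1 summit were also present upstream of genes without a call. The search covered 4 words of 6 bases on both strands, namely CGAGAC and ACCGTA as well as ACGCAG and GACGCA, which overlap each other by 5 bases. These words had been picked as frequent in these same peaks, so their shares are descriptions. CGAGAC occurred in the 100 bp around 18.4% of thresholded summits, 2.06% of the other pooled calls and, in a longer window of 250 bp before to 50 bp after the 5′ end, at 8.09% of coding genes. ACCGTA occurred at 16.9%, 2.35% and 8.11% in the same order. Both together occurred at 5.36% of thresholded summits, 0.199% of the other calls and 1.13% of coding genes. Among the cohesin genes, wapl-1, coh-3 and coh-4 held both, evl-14 held CGAGAC and coh-1 held GACGCA, while smc-1, smc-3 and scc-3 held none of the 4. The 200 bases upstream of coh-3 (chrV:14457222-14457421, plus strand), coh-4 (chrV:4175641-4175840, minus strand) and scc-3 (chrV:12763745-12763944, plus strand) are shown to compare genes with and without the words, each read towards its gene. Capitals mark the words as above.
coh-3 upstream: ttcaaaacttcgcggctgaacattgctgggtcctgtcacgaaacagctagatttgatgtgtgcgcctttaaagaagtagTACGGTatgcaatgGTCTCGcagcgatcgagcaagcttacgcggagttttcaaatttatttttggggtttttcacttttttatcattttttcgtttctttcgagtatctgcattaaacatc
coh-4 upstream: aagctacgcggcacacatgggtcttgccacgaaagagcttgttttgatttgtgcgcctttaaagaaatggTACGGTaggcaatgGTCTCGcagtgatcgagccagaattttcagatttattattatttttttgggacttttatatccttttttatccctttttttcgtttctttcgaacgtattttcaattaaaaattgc
scc-3 upstream: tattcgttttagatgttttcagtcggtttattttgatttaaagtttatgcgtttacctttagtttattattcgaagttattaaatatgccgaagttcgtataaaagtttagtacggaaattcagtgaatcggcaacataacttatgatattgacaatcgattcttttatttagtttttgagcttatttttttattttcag
TACGGT begins 121 bp upstream of coh-3 and 130 bp upstream of coh-4, and GTCTCG 107 and 116 bp upstream, in the reverse of their order at wapl-1. The pair is not a separate observation in each gene, since coh-3 and coh-4 are related copies whose 5′ regions match over 1077 bp at 81.9% identity. No match of 90% identity over 50 bp or more was found elsewhere in the genome for the 2001 bp around the 5′ end of coh-3, wapl-1, smc-1, smc-3, scc-3 or evl-14. The coh-1 window had 2 such matches and the coh-4 window 20, the longest 212 bp.

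Of the 225 coding genes with both words in this window, 16 (7.11%) had a thresholded peak within 1000 bp, against 1.36% of the 19748 without both. A pooled call lay at 56.4% of those with both, against 48.8% of those without. The pair was thus more frequent at the peaks from which the words had been picked, but most genes that hold it had no peak, as at coh-3 and coh-4.

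Further genes of cohesin biology were read from a list of 9. Of these 5 had a pooled call, 3 had a call in both replicates and 1 had a thresholded peak, against the 48.9%, 28.5% and 1.49% of coding genes given above. The gene with the thresholded peak was ify-1, the securin gene, whose product holds back the protease that cuts the kleisin at anaphase. The ify-1 peak had a signal of 30.6 in replicate 1 (rank 231), 42.9 in replicate 2 (rank 162) and 74.5 in the pooled list (rank 162). Its pooled summit was 162 bp upstream of ify-1 and 275 bp upstream of rpl-22, a ribosomal protein gene on the opposite strand, so the ify-1 peak, like that of wapl-1, sits between a pair of genes that point away from each other.

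Below the thresholded set, whose weakest peak had a signal of 51.5, the strongest pooled calls within 1000 bp of these further genes were at tim-1 and scc-1. Both are named here after their values were seen. The gene tim-1 encodes a relative of Timeless, and its pooled call had a signal of 40.6 at rank 453, with rank 723 in replicate 1 and rank 229 in replicate 2. That call was 333 bp upstream of tim-1, but 32 bp from the 5′ end of the spliced leader gene sls-2.8. The mitotic kleisin gene scc-1 had a pooled call of 40.3 at rank 462, with rank 353 in replicate 1 and only 4811 in replicate 2. Its summit was 264 bp upstream of scc-1 and 30 bp upstream of rpn-5, a gene of the proteasome lid. At both genes the summit was thus nearer to another gene's start. The loader gene scc-2 (20.7, rank 8483) and the separase gene sep-1 (18.5, rank 12511) had pooled calls near the median of coding genes. These too lay nearer to another start, 195 bp from B0432.14 against 495 bp from scc-2, and 171 bp from nefr-1 against 727 bp from sep-1. A stronger pooled call of 49.8 at rank 277 lay inside scc-2, 8335 bp from its 5′ end, where replicate 2 had one of 36.5 at rank 208. In replicate 1 the strongest call inside scc-2 was 17.0 at rank 3792, 11092 bp from the 5′ end. The remaining 4 of the list, rec-8, mau-2, eco-1 and sgo-1, had no pooled call within 1000 bp.

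Of 11 genes for condensin and the SMC-5/6 complex, relatives of cohesin, none had a thresholded peak, 7 had a pooled call (63.6%, against 48.9% of coding genes) and 5 had a call in both replicates (45.5%, against 28.5%). The strongest were at dpy-27, which encodes an SMC protein of the dosage compensation complex on X (pooled 31.8, rank 1201), and at smc-4, which encodes its condensin counterpart (31.4, rank 1274). Both summits were nearer to another gene's start. The first was 475 bp upstream of dpy-27 but 119 bp from the 5′ end of the non-coding RNA gene R13G10.5. The second was 399 bp upstream of smc-4 but 228 bp from the 5′ end of F35G12.7. Replicate 1 placed the dpy-27 call at rank 212, but replicate 2 had no call within 1000 bp of dpy-27. For smc-4 the ranks were 1605 in replicate 1 and 18806 in replicate 2. At neither gene did the replicates rank the call alike, unlike at wapl-1 and ify-1.

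**Figure D3:**
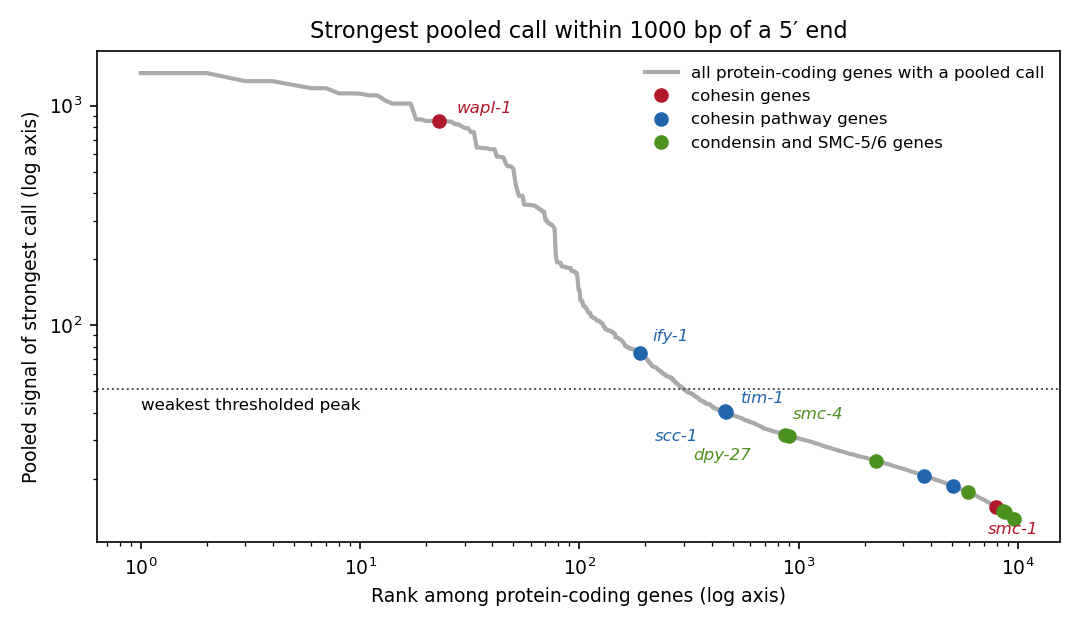
Pooled signal of the strongest call within 1000 bp of each protein-coding 5′ end against its rank among the 9779 such genes, both on log axes, with the listed genes that have a call as points. The wapl-1 point is at rank 23 and ify-1 at rank 188, above the weakest thresholded peak (dotted line), and smc-1 is at rank 7935.

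**Figure D4:**
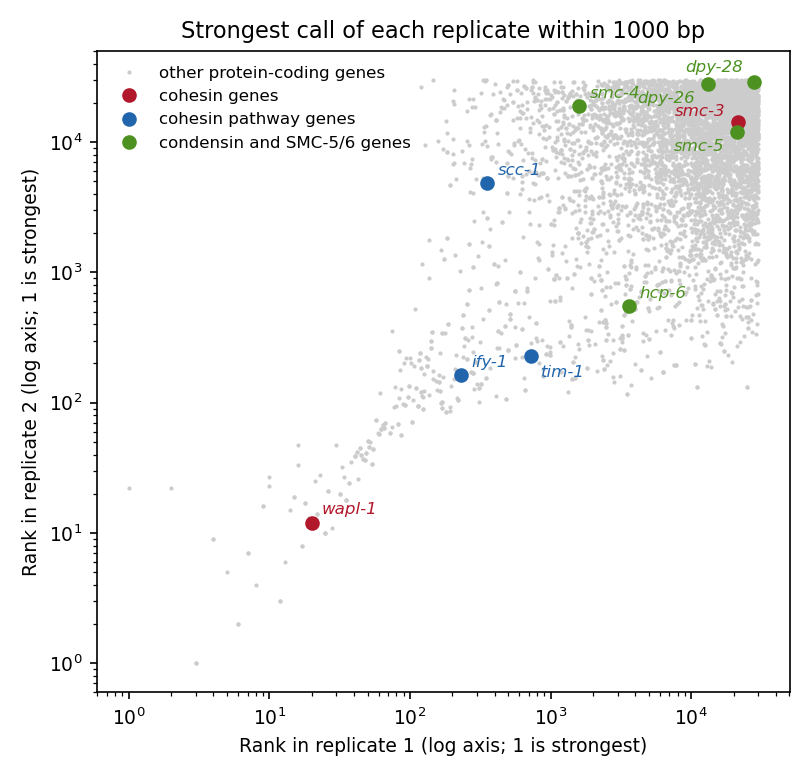
Rank of the strongest call within 1000 bp in replicate 1 and in replicate 2, on log axes, for genes with a call in both; grey points are other protein-coding genes. Among the listed genes wapl-1 (20 and 12), ify-1 (231 and 162) and tim-1 (723 and 229) have ranks below 1000 in both replicates.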

How the data were processed

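ChIP-seq calls from both L3 replicates were used on build ce11, the build of the annotation and genome at hand. The README files of the deposited data state that each replicate list and the pooled list was made from alignments and 1 further file common to all, read here as the control because the control-normalized tracks list it too, and that thresholding by irreproducible discovery rate (IDR) turned these lists into the 261 peaks. The deposited signal value is the caller's own measure, on a scale that differs between lists, and the deposited q-value field was read as a score. For the aligner, peak caller and IDR cutoff, names and values are not given in the sources used here, and read depth is unknown.

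Calls were joined by summit to Ensembl release 115 gene 5′ ends within 1000 bp and ranked by signal. Distances are 1-based. The join was tested on simulated summits. Python 3.11.15, numpy 2.4.6, pandas 2.3.3, matplotlib 3.10.9, samtools 1.23.1 and blastn 2.17.0 were used. Bases came from the RefSeq sequence of the same assembly. No test was run. Named genes were the 8 cohesin genes, related genes with a thresholded peak or else the strongest of their list, genes that share a call with them, and the 3 coding genes nearest to wapl-1 in replicate ranks. The members, lists and words were chosen with earlier results of these data known. Alternatives changed the distance, the 5′ end, the call position, the list length and the replicate.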

Additional observations from a re-analysis of the deposited data

How the results depend on the processing

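The count of cohesin genes with a thresholded peak was 1, wapl-1, under all 9 alternatives, which included distances of 250 to 2000 bp, the nearest gene alone, the peaks above the median signal and the 261 strongest calls of either replicate alone. The rank of wapl-1, as a share of the list, was 0.0433% in the pooled list, 0.0400% to 0.0667% with 1 replicate left out, 0.119% among calls at coding 5′ ends and 0.0400% without mitochondrial calls, which was added with the data already seen. The same 2 words were found in 200 bp. Counts of weak calls depended on the settings. A pooled call lay at 2 of 8 cohesin genes (48.9% of coding genes), but at 1 within 250 bp (17.0%), 6 within 2000 bp (68.3%), 5 with every transcript's 5′ end (51.7%) and 1 among the strongest 3000 calls (8.21%). Calls in both replicates lay at 2 (28.5%), but at 1 within 250 bp (5.2%), 5 within 2000 bp (52.1%), 3 with every transcript's 5′ end (32.5%) and 1 among the strongest 3000 (2.51%). Related genes with a thresholded peak numbered 1, but 0 among peaks above the median signal and 2 with either replicate alone (ify-1 with tim-1 in replicate 2, ify-1 with dpy-27 in replicate 1). By construction, the 250 bp window is narrower, the 2000 bp window wider, added ends cover more positions, and shorter lists hold fewer calls; for the counts with 1 replicate alone the cause was not tested. No paired analysis was possible because there was 1 group. Unknown depth and lists of fixed length limit what a missing call shows.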

Other observations

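The pooled list did not contain every place that the replicates shared. At hcp-6, a condensin gene named here after its values were seen, replicate 1 had a call of 17.1 at rank 3602, 47 bp upstream, and replicate 2 had one of 22.4 at rank 551, 220 bp upstream. Even so, no pooled call lay within 2000 bp of hcp-6. The gene let-630 starts on the opposite strand, and the 2 summits were 217 and 44 bp upstream of it. In replicate 2, kle-2 (16.7, rank 1629, 700 bp upstream), eco-1 (15.9, rank 1986, 669 bp upstream) and smc-6 (14.8, rank 2661, 279 bp upstream) had calls stronger than those at smc-1 (11.6) and smc-3 (8.87), and replicate 1 had no call within 1000 bp of these 3 genes. Of the 3, kle-2 also had a pooled call (17.4, rank 15253). The kle-2 call lay nearer to C29E4.12 (134 bp upstream) and the eco-1 call nearer to hmgr-1 (266 bp inside). For the loader gene mau-2 the strongest pooled call (28.6, rank 2018) lay 1344 bp upstream, outside the distance used. Replicate 1 had a call of 17.0 at rank 3763 there, 1350 bp upstream. Replicate 2 had a call of 24.99 at rank 408, 1174 bp upstream, close to a separate pooled call (21.2, rank 7768) at 1142 bp upstream.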
